A study of Mus musculus with 6 samples.

Results

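Twist1, Twist2, Snai1, Snai2, Snai3, Zeb1 and Zeb2 encode the transcription factors best known for driving the epithelial-to-mesenchymal transition (EMT). They were read in GFP+ neural crest cells (NCCs) sorted from mouse embryos at E11.25. All 7 genes were found by their Ensembl identifier, through the names of GENCODE mouse release 21, among the 46983 genes of a table of counts. Of the 7, 4 (Twist1, Snai2, Zeb1 and Zeb2) passed the filter on low counts and were tested with 13961 genes in all, whereas Twist2, Snai1 and Snai3 did not pass and are given as counts and levels. All samples were Wnt1Cre/+ and Rosa26mTmG/+. The 3 control samples were heterozygous for both floxed genes (BAF155flox/+ with BAF170flox/+), and the 3 deficient samples were homozygous for both (BAF155flox/flox with BAF170flox/flox). Every sample thus carried the Cre, the reporter and a floxed copy of each gene. By genotype, the comparison sets both copies floxed against a single floxed copy, and loss of these copies in the sequenced cells was not tested. Wnt1 Cre is not restricted to NCCs, being active also in the dorsal neural tube, so GFP can mark neural tube cells as well. The p-values measure the spread between these samples, which the methods describe as collected from 3 embryos of each genotype.

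BAF155 and BAF170 are core subunits of the BAF complex, which uses ATP to move nucleosomes and so opens chromatin to transcription factors. Premigratory crest cells sit in the neuroepithelium of the dorsal neural tube, undergo an EMT, and leave as migratory cells. Snail and Zeb proteins are zinc finger repressors that bind the E-box CAGGTG in the promoters of epithelial genes such as Cdh1. Twist proteins are bHLH factors that bind E-boxes of the form CANNTG as dimers with E proteins, and Twist1 is needed for the mesenchyme that cranial crest forms in the pharyngeal arches. Zeb2 is needed for crest formation and is also known as a factor of macrophages, where it maintains their identity.

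The promoters below are shown because these genes encode E-box binders, some of which are known to act on their own family. Each is the stretch of 250 bases before the RefSeq start site on GRCm38.p6, written 5′ to 3′ on the gene's strand, with any E-box (CANNTG) in capitals. RefSeq promoters were read for Twist1, Twist2, Snai1 and Zeb2, and for Zeb2 the one nearest to the start of its annotated gene was taken among 4. None was at hand for Snai2 and Snai3, and Zeb1 was left out of this reading.
Twist1, chr12:33957421-33957670, plus strand: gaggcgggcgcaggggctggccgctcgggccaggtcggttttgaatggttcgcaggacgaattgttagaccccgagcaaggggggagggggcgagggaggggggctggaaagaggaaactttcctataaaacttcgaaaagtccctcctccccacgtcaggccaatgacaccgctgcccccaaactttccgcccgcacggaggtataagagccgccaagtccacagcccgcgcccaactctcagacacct
Snai1, chr2:167537945-167538194, plus strand: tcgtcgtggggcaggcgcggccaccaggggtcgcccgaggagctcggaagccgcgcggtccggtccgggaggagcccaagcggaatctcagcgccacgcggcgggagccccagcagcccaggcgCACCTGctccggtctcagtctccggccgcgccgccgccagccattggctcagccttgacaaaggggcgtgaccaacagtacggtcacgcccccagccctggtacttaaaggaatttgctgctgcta
Zeb2, chr2:45117443-45117692, minus strand: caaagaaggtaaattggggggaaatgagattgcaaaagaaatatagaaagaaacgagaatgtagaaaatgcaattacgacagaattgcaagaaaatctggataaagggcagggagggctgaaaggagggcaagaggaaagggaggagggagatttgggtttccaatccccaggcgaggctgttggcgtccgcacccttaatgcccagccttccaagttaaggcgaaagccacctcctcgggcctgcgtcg

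The Snai1 stretch held 1 E-box, CACCTG, whose first base lies 126 bases before the start site. It is CAGGTG read on the other strand, the form that Snail and Zeb proteins bind. The stretches of Twist1, Twist2 and Zeb2 held no CANNTG. Among all 32851 promoters of the table, 66.2% held a CANNTG on either strand in the same window and 17.2% held a CAGGTG. The letters GGAATG, the core of the Tead motif, were found on neither strand of the 4 promoters and in 12.6% of all promoters. Base composition differed between them, with 62.4% G and C for Twist1, 70.0% for Snai1, 68.8% for Twist2 and 49.6% for Zeb2.

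Counts on genes summed to between 8191219 and 11661941 per control library and between 12633319 and 19808620 per deficient library, so every deficient library was the deeper. Levels are given as CPM, counts scaled to TMM-normalized library sizes. Calls required all of an adjusted p no higher than 0.1 (edgeR's quasi-likelihood test, Benjamini-Hochberg), a log2 fold change of 0.58 or more up or down, and 2 CPM or more on average. Smarcc1, which encodes BAF155, had 42.1, 55.0 and 35.1 CPM across control replicates 1 to 3, against 29.4, 26.4 and 24.5 CPM across deficient replicates 1 to 3. Smarcc2, which encodes BAF170, lay between 89.9 and 92.9 CPM in the controls and between 82.3 and 86.8 CPM in the deficient libraries. Smarcc1 was called lower under TMM scaling and was at 0.21 on the log2 scale when scaled to embryonic markers, and Smarcc2 was not called. The Smarcc1 call was also lost under a correction for exon length (−0.57) and without control replicate 2 (−0.53). It was lost as well without control replicate 1, deficient replicate 2 or deficient replicate 3. The counts cover whole genes, so they do not show the floxed exons on their own. The libraries carried abundant macrophage RNA in both groups, with 12 macrophage markers summing to 12300 ± 910 CPM in control and 14000 ± 606 CPM in deficient libraries (SD, n = 3 each), although the labels name neural crest cells. Mesenchymal crest markers were present at a far lower level, with 16 markers summing to between 63.8 and 106 CPM per control library and between 31.0 and 52.9 CPM per deficient library.

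The family was uneven in level, and the 2 groups differed for some members and not for others. Twist1 was called lower in the deficient libraries, at 0.437 of its control mean. Zeb1 passed the adjusted p but not the fold change, and Zeb2, the most abundant member, overlapped between the groups and passed neither. Snai2 had a large fold change that did not pass. Across all tested genes, 4.88% were called lower and 0.0573% higher, and of the 4 tested members 1 was called lower and 0 higher. Without control replicate 1 no gene of the table was called by edgeR in either direction, and 2547 had an unadjusted p under 0.05, so no call given here held without that library.

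**Figure D1:**
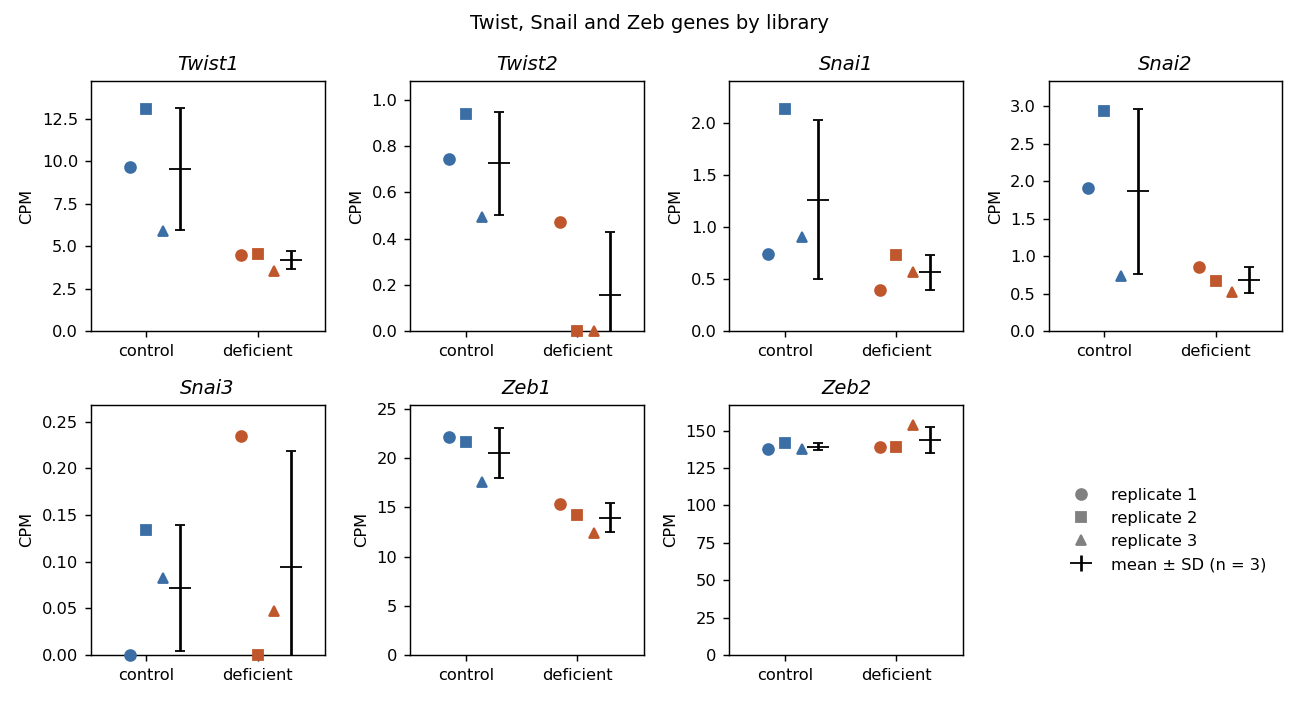
Level of each member in CPM (linear axis from 0) in the 3 control (blue) and 3 deficient (orange) libraries, marker shapes giving the replicate number, with the mean and SD beside each group. Twist1 and Zeb1 lie lower in every deficient library than in any control library, whereas Zeb2 stays between 138 and 154 CPM throughout.

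Twist1 (ENSMUSG00000035799.5, chromosome 12 of GRCm38 from 33957671 to 33959829, plus strand) had 9.68, 13.1 and 5.91 CPM across control replicates 1 to 3, against 4.46, 4.52 and 3.56 CPM across deficient replicates 1 to 3. The groups did not overlap, and the controls spread more widely than the deficient libraries, control replicate 2 being highest and control replicate 3 lowest among them. The means were 9.57 ± 3.60 CPM (SD, n = 3) and 4.18 ± 0.539 CPM (SD, n = 3). Twist1 fell, with a log2 fold change of −1.18 (standard error 0.27, edgeR, Benjamini-Hochberg adjusted p = 0.0647). These levels rest on 57 to 98 counts per library. The exact two-sided permutation test of the log2 CPM gave p = 0.1, the smallest possible in this design. The call did not hold in 4 of the 6 fits that left out 1 library: the edgeR Benjamini-Hochberg adjusted p was 0.227 without control replicate 1, 0.199 without control replicate 2, 0.1004 without deficient replicate 2 and 0.202 without deficient replicate 3.

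Twist2 (ENSMUSG00000007805.4, chromosome 1 from 91801461 to 91848028, plus strand) encodes a close paralogue of Twist1 that acts in mesenchymal precursors and dermis. It was near the limit of detection, with 7, 7 and 6 counts in control replicates 1 to 3 and 6, 0 and 0 counts in deficient replicates 1 to 3. All counts of the deficient group thus came from replicate 1. A count of 0 allows up to 0.183 CPM in deficient replicate 2 and 0.142 CPM in deficient replicate 3, taking 3 counts as the limit, for counting error only. The control levels were 0.744, 0.936 and 0.492 CPM against 0.470 CPM in deficient replicate 1, so the groups did not overlap (exact permutation p = 0.1). Control replicate 3 and deficient replicate 1 both had 6 counts, so this separation rests on library scaling. Every deficient value lay below every control value in 16.4% of all tested genes. Fitted without a filter on low counts, among 32523 genes, its log2 fold change was −2.32 (standard error 0.87, edgeR, Benjamini-Hochberg adjusted p = 0.0882), a value that depends on the handling of zeros. Its mean was below the 2 CPM needed for a call. An antisense gene, Gm29100, shares 1477 exonic bases with Twist2 and held between 0 and 2 counts per library.

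Among the Snail genes, Snai2 (ENSMUSG00000022676.6, chromosome 16 from 14705852 to 14709385, plus strand), which encodes Slug and marks premigratory and migratory crest in several vertebrates, was the most abundant in the controls. It had 1.91, 2.94 and 0.739 CPM across control replicates 1 to 3, against 0.862, 0.672 and 0.522 CPM across deficient replicates 1 to 3. Control replicate 3 lay below deficient replicate 1, so the groups overlapped. The log2 fold change was −1.41 (standard error 0.52) and did not pass (edgeR, Benjamini-Hochberg adjusted p = 0.118). The mean over all libraries, 1.28 CPM, was also below the threshold for a call. Between 9 and 22 counts per library stand behind these levels.

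Snai1 (ENSMUSG00000042821.7, chromosome 2 from 167538195 to 167542814, plus strand), the Snail gene required for the EMT of gastrulation, had 7, 16 and 11 counts in control replicates 1 to 3 and 5, 12 and 12 counts in deficient replicates 1 to 3. In CPM these were 0.744, 2.14 and 0.903 in the controls and 0.392, 0.733 and 0.570 in the deficient libraries. The groups did not overlap, but the gap between the lowest control and the highest deficient library was small (exact permutation p = 0.1). Without a filter on low counts the log2 fold change was −1.03 (standard error 0.55) and did not pass (edgeR, Benjamini-Hochberg adjusted p = 0.340). Snai3 (ENSMUSG00000006587.5, chromosome 8 from 122454208 to 122460733, minus strand), known mainly from blood and muscle cells, held between 0 and 3 counts per library. No difference in Snai3 was detectable at this depth.

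Zeb1 (ENSMUSG00000024238.13, chromosome 18, plus strand), a repressor of epithelial genes expressed widely in mesenchyme, had 22.2, 21.7 and 17.6 CPM across control replicates 1 to 3, against 15.3, 14.2 and 12.4 CPM across deficient replicates 1 to 3. All deficient values were below all control values (exact permutation p = 0.1), and the means were 20.5 ± 2.55 CPM and 13.9 ± 1.45 CPM (SD, n = 3 each). The log2 fold change of −0.55 (standard error 0.13) passed the adjusted p (edgeR, Benjamini-Hochberg adjusted p = 0.0632) but was short of the 0.58 needed for a call. By the adjusted p alone, 2 of the 4 tested members were lower, against 7.75% of all tested genes. Every deficient value lay below every control value in the same 2 tested members, Twist1 and Zeb1, against 16.4% of all tested genes. Leaving out 1 library moved Zeb1 to either side of these thresholds. Its edgeR Benjamini-Hochberg adjusted p was 0.237 without control replicate 1, 0.188 without control replicate 2, 0.1004 without deficient replicate 2 and 0.203 without deficient replicate 3. It was called lower without control replicate 3 (log2 fold change −0.66, adjusted p = 0.0146) and without deficient replicate 1 (−0.62, adjusted p = 0.0384). Zeb1 was also called lower by limma-voom with sample quality weights (−0.61) and under a filter of 2 CPM in 3 libraries (−0.5825).

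Zeb2 (ENSMUSG00000026872.16, chromosome 2 from 44983632 to 45117395, minus strand) had 138, 142 and 138 CPM across control replicates 1 to 3, against 139, 139 and 154 CPM across deficient replicates 1 to 3. The groups overlapped, and deficient replicate 3 stood above the other 5 libraries. The means were 139 ± 2.43 CPM and 144 ± 8.80 CPM (SD, n = 3 each), and the log2 fold change, 0.05 with a standard error of 0.061, did not pass (edgeR, Benjamini-Hochberg adjusted p = 0.631). With between 1062 and 3250 counts per library, Zeb2 was measured more deeply than any other member. When each library was corrected for its trend with exon length, the log2 fold change of Zeb2, the member with the longest exons in sum, was 0.40 (edgeR, Benjamini-Hochberg adjusted p = 0.0983), still under the fold change threshold. Zeb2os, an antisense gene at the 5′ end of Zeb2 that shares 653 exonic bases with it, had 5.23 ± 0.946 CPM in control and 5.29 ± 0.911 CPM in deficient libraries (SD, n = 3 each, edgeR, Benjamini-Hochberg adjusted p = 0.971). The libraries are strand-specific, but the strand setting of the counting is not given in the sources used here, so reads in the shared bases cannot be assigned to either gene with certainty.

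**Figure D2:**
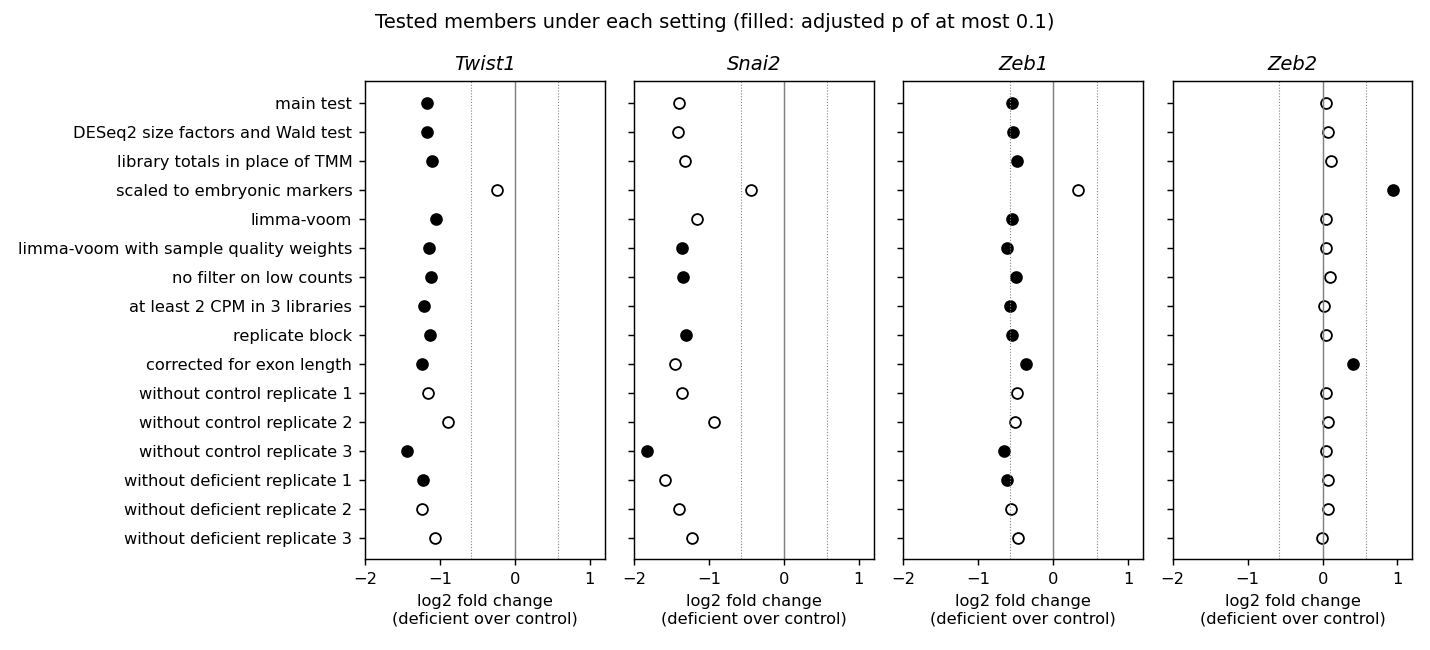
Log2 fold change (deficient over control) of the 4 tested members under the main test and each alternative, filled where the Benjamini-Hochberg adjusted p was at most 0.1, with dotted lines at 0.58 in either direction. Twist1 stays below 0 under every setting shown, from −1.45 to −0.23, whereas Zeb1 is at 0.34 and Zeb2 at 0.94 when the libraries are scaled to embryonic markers, and Snai2 has no point under the filter of 2 CPM in 3 libraries, which it did not pass.

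Divided by the length of the annotated exons, the control levels were 6.98 ± 0.122 CPM per kb for Zeb2, 5.88 ± 2.21 for Twist1, 2.0 ± 0.248 for Zeb1, 0.923 ± 0.546 for Snai2, 0.779 ± 0.472 for Snai1, 0.228 ± 0.0702 for Twist2 and 0.0442 ± 0.0414 for Snai3 (SD, n = 3 each). On this scale the neighbours Zeb2 and Twist1 lay within the spread of the controls, as did Snai2 and Snai1. In the deficient libraries Zeb2 stood at 7.23 ± 0.442 and Twist1 at 2.57 ± 0.331 CPM per kb, with no overlap. Zeb2 has 29 annotated transcripts, and the joint length of their exons, 19942 bases, exceeds that of the longest single one, 9124 bases. With the longest transcript in place of the joint exons, the control level of Zeb2 was 15.3 ± 0.266 CPM per kb and that of Zeb1 3.53 ± 0.439, which sets Zeb2 above every control value of Twist1.

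Of all counts on the 7 genes, Zeb2 took between 77.6% and 84.3% in a control library and between 86.5% and 90.0% in a deficient library. Twist1 took between 3.62% and 7.16% in the controls and between 2.08% and 2.84% in the deficient libraries. Ratios within a library, chosen after the values were seen, do not depend on how libraries are scaled to each other. The log2 ratio of Twist1 to Zeb2 was −3.83, −3.44 and −4.54 in control replicates 1 to 3 and −4.96, −4.94 and −5.44 in deficient replicates 1 to 3. The groups did not overlap, the difference being −1.18 (exact permutation p = 0.1, the smallest possible). That of Zeb1 to Zeb2 differed by −0.60, from −2.77 ± 0.176 to −3.37 ± 0.236 (SD, n = 3 each, exact permutation p = 0.1), and that of Twist1 to Zeb1 by −0.57, from −1.17 ± 0.424 to −1.74 ± 0.0808 (exact permutation p = 0.1). The ratio of Snai2 to Twist1 overlapped between the groups, with a difference of −0.13 (exact permutation p = 0.8). Zeb2 differed little between the groups (log2 fold change 0.05), so the 2 ratios to Zeb2 largely restate the main test and are not separate results. The part of other cell types in these ratios was not tested.

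The sorted cells were also read for markers of the cell types they could hold. The 16 mesenchymal crest markers, led by Pdgfra and Prrx1, summed to 92.3, 106 and 63.8 CPM in control replicates 1 to 3 and to 52.9, 33.4 and 31.0 CPM in deficient replicates 1 to 3. All 51 markers of embryonic lineages, which add sensory, autonomic, glial crest and neural tube cells, summed to 383 ± 120 CPM in control and 201 ± 35.8 CPM in deficient libraries (SD, n = 3 each, exact permutation p = 0.1). Control replicate 2 held the highest and control replicate 3 the lowest of the control sums, the same order of controls as for Twist1. The 12 macrophage markers, led by Ctss at 3830 CPM and Lyz2 at 3470 CPM, ranged from 11400 to 13200 CPM in the controls and from 13400 to 14600 CPM in the deficient libraries, and none of the 12 was at 0. The log2 ratio of Zeb2 to this sum was −6.46 ± 0.129 in the controls and −6.60 ± 0.0421 in the deficient libraries (SD, n = 3 each), with overlapping groups (exact permutation p = 0.2).

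**Figure D3:**
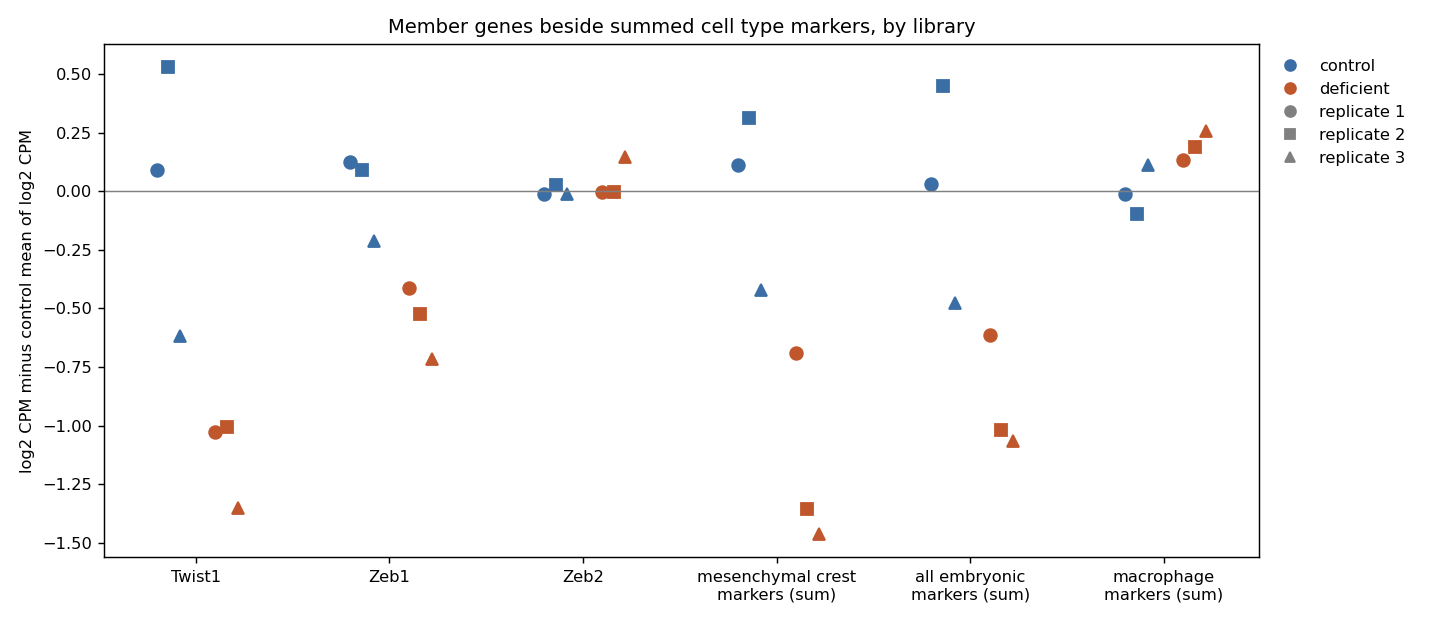
Log2 CPM minus the mean of the 3 control libraries for Twist1, Zeb1, Zeb2 and the summed CPM of mesenchymal crest markers, all embryonic markers and macrophage markers, with control libraries in blue, deficient ones in orange and marker shapes for the replicate. Twist1, Zeb1 and both embryonic sums are lower in every deficient library than in every control library, whereas Zeb2 overlaps and the macrophage sum is higher in every deficient library.

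Measured against these markers within each library, Twist1 did not stand apart. Its log2 ratio to the mesenchymal crest sum was −3.24 ± 0.208 in the controls and −3.19 ± 0.345 in the deficient libraries (SD, n = 3 each), with overlapping groups and a difference of 0.04 (exact permutation p = 0.9). The log2 ratio to all embryonic markers differed by −0.23 for Twist1 (exact permutation p = 0.2), by −0.36 for Snai2 (exact permutation p = 0.4) and by 0.35 for Zeb1 (exact permutation p = 0.2), each with overlapping groups. In sorted bulk samples, fewer cells of a type and less RNA of a gene per cell cannot be told apart. When libraries were scaled to the median of 27 embryonic markers, a scaling that removes whatever these markers share, the median over all tested genes moved, on the log2 scale, from −0.02 to 0.85. On that scale Twist1 was at −0.23 (edgeR, Benjamini-Hochberg adjusted p = 0.585), Snai2 at −0.44 (edgeR, adjusted p = 0.472), Zeb1 at 0.34 (adjusted p = 0.399) and Zeb2 at 0.94 (adjusted p = 0.0369). Relative to that shift, Twist1 was lower by 1.09, Snai2 by 1.29 and Zeb1 by 0.52, and Zeb2 was higher by 0.09. Taking off the shift largely undoes the scaling, so these values restate the main test and are not a separate result. The part of other cell types in the member results was not tested.

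Neutrophil markers, led by S100a8 and S100a9, summed to 19.9 ± 2.51 CPM in control and 25.6 ± 1.90 CPM in deficient libraries (SD, n = 3 each). Endothelial markers summed to 183 ± 11.6 and 205 ± 7.27 CPM, of which Kdr made up 184 CPM on average and Pecam1 5.59 CPM. Erythroid markers, led by Hbb-y and Hba-x, summed to 32.7 ± 23.5 and 12.4 ± 3.01 CPM. Lymphoid markers were at or under 1.10 CPM in sum in every library. Sensory markers, led by Dcx and Tubb3, summed to 124 ± 58.1 and 47.0 ± 9.52 CPM without overlap, whereas the sums of glial crest markers (led by Ednrb) and neural tube markers (led by Nes) overlapped between the groups.

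The genes around the family were read from lists written with earlier results of these data known, so their counts describe and do not test. Over all tested genes the median log2 fold change was −0.02, and 4.88% were called lower and 0.0573% higher. Among 9 genes that pair with Twist proteins or sequester their partners (E proteins, Hand factors and Id inhibitors), 8 were tested, with a median of −0.33, and 1 was called lower. That gene was Tcf3, which encodes E12 and E47, the dimer partners of Twist1. It had 32.1, 35.2 and 27.2 CPM across control replicates 1 to 3, against 23.6, 19.9 and 19.0 CPM across deficient replicates 1 to 3, a log2 fold change of −0.59 (standard error 0.12, edgeR, Benjamini-Hochberg adjusted p = 0.0483), and was at 0.31 when scaled to embryonic markers. This call sat at the edge of the fold change threshold and was also lost under DESeq2 (−0.58), library totals (−0.53), no filter on low counts (−0.54), the exon-length correction (−0.57) and 4 of the 6 fits without 1 library. The more abundant Tcf4 (118 ± 1.84 and 111 ± 4.03 CPM) and Id2 (221 ± 14.8 and 245 ± 12.4 CPM) were not called. The 16 cofactors that Snail and Zeb proteins recruit, led by Smarca4 (192 ± 10.2 and 189 ± 6.89 CPM), the Brg1 ATPase of the BAF complex, and Ehmt2, had a median of −0.16 and no call. The 14 genes for the turnover of Snail and Twist proteins, led by Mdm2 and Csnk1a1, had a median of −0.07 and no call.

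Signals that induce the family were called in 4 of 19 tested genes, all lower, with a median of −0.19 over the 19, against 4.88% called lower among all tested genes. Tgfb2, a TGF-beta ligand that induces EMT in cushion and crest tissue, had 2.02, 4.55 and 2.79 CPM across control replicates 1 to 3, against 1.17, 0.855 and 0.712 CPM across deficient replicates 1 to 3. The fitted log2 difference for Tgfb2 was −1.77 (standard error 0.40, edgeR, Benjamini-Hochberg adjusted p = 0.0583). Its mean was close to the 2 CPM needed, and the call was lost in 10 of 16 alternatives, among them DESeq2, library totals, no filter and the exon-length correction. Bmpr1a, a type I BMP receptor, went from 18.3 ± 4.30 to 9.67 ± 2.72 CPM, Hmga2, a chromatin protein that acts on Snai1 and Twist1, from 32.1 ± 8.25 to 16.7 ± 2.08 CPM, and Egr1, an immediate early factor, from 6.18 ± 1.40 to 3.46 ± 0.604 CPM (SD, n = 3 each). None of these 4 calls held when libraries were scaled to embryonic markers, where log2 fold changes were −0.86 for Tgfb2, −0.022 for Bmpr1a, −0.00064 for Hmga2 and 0.079 for Egr1 (edgeR, adjusted p from 0.105 for Tgfb2 to 0.999 for Hmga2). The calls of Bmpr1a, Hmga2 and Egr1 were also lost without control replicate 1, deficient replicate 2 or deficient replicate 3. Bmpr1a and Egr1 lost theirs without control replicate 2 as well, and Egr1 without deficient replicate 1. The abundant Hif1a and Ctnnb1, at 414 and 379 CPM in the controls, were not called.

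Crest factors that work with the family at delamination were lower in 13 of 15 tested genes, with a median of −0.77, and 6 of the 15 were called lower, whereas of all 13961 tested genes 7305 were lower and 4.88% were called lower. Sox10, the factor of glial and migratory crest, had 4.36, 7.76 and 2.22 CPM across control replicates 1 to 3, against 1.49, 0.855 and 1.19 CPM across deficient replicates 1 to 3, a log2 fold change of −1.99 (standard error 0.45, edgeR, Benjamini-Hochberg adjusted p = 0.0625). The log2 fold changes were −1.76 for Sox9 (standard error 0.36), −1.70 for Tfap2b (standard error 0.33) and −1.27 for Tfap2a (standard error 0.28). Sox10, Sox9, Tfap2b and Tfap2a all lost their call when control replicate 1, control replicate 2 or deficient replicate 3 was left out. Sox10 and Tfap2a lost it without deficient replicate 2 as well. The remaining calls were Msx1 and Mycn. Lmo4 and Rhob, the most abundant genes of the list, were not called. Scaled to embryonic markers, Sox10 (−0.97), Sox9 (−0.82) and Tfap2b (−0.73) were still called lower (edgeR, Benjamini-Hochberg adjusted p = 0.0491, 0.063 and 0.0726) and Tfap2a (−0.30) was not. Values of Msx1 and Mycn on this scale are not given here. Over all tested genes this scale called 71 lower and 8517 higher. The median of this list was 0.10, against 0.85 for all tested genes.

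Mesenchymal genes were found on both sides. Of 23 tested, 16 were lower and 7 higher, and 7 were called lower and 0 higher, beside the 4.88% called lower and the 7305 of 13961 below 0 among all tested genes. Cdh11, a cadherin of migrating mesenchyme, had 16.2, 25.8 and 13.7 CPM across control replicates 1 to 3, against 9.40, 5.99 and 5.89 CPM across deficient replicates 1 to 3, a log2 fold change of −1.39 (standard error 0.28, edgeR, Benjamini-Hochberg adjusted p = 0.0625). Col1a2, a fibrillar collagen chain, went from 89.9 ± 19.3 to 53.2 ± 4.55 CPM, Mmp2, a gelatinase, from 7.08 ± 1.66 to 3.65 ± 0.330 CPM, and Fbn1, a microfibril protein, from 15.7 ± 3.73 to 9.24 ± 1.22 CPM (SD, n = 3 each). None of these 4 calls held when libraries were scaled to embryonic markers, where log2 fold changes were −0.43 for Cdh11, −0.0011 for Mmp2 and 0.17 for both Col1a2 and Fbn1 (edgeR, adjusted p from 0.275 for Cdh11 to 0.999 for Mmp2). Each of these 4 calls was also lost without control replicate 1, deficient replicate 2 or deficient replicate 3. Mmp2, Col1a2 and Fbn1 lost theirs without control replicate 2 as well. The exon-length correction took Col1a2 to −0.51 and Fbn1 to −0.52, short of a call. Cdh2, Col1a1 and Col3a1 were called lower as well. Vim, the intermediate filament taken as a sign of mesenchyme and also abundant in macrophages, was at 2460 ± 132 CPM in control and 2810 ± 97.8 CPM in deficient libraries with a log2 fold change of 0.19, and Mmp14 at 529 ± 38.8 and 618 ± 36.1 CPM with 0.22 (SD, n = 3 each). Neither was called, although Mmp14 passed the adjusted p (edgeR, Benjamini-Hochberg adjusted p = 0.0940). By the adjusted p alone, 8 genes of the list were lower and 2 higher. The other higher gene was Itga5, at 328 ± 13.9 and 382 ± 15.9 CPM with a log2 fold change of 0.22 (edgeR, Benjamini-Hochberg adjusted p = 0.0784).

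Most epithelial genes that Snail and Zeb factors repress were low in both groups. Of 30 listed, 19 did not pass the filter on low counts, and the highest of these in any library was Cdh3 at 1.74 CPM. Cdh1, which encodes E-cadherin, had 0.319, 1.07 and 0.821 CPM across control replicates 1 to 3, against 0.548, 0.306 and 0.475 CPM across deficient replicates 1 to 3. Epcam had 0.851, 1.07 and 0.574 CPM in control and 0.235, 0.306 and 0.0950 CPM in deficient libraries. Ocln, also under the filter, went the other way on average, with overlapping groups. It was at 0.278 ± 0.0375 CPM in control and 0.757 ± 0.638 CPM in deficient libraries (SD, n = 3 each). The 11 tested genes, led by Tjp1 (16.0 ± 4.34 and 11.3 ± 4.52 CPM) and Lad1 (8.03 ± 1.63 and 9.56 ± 0.0295 CPM), had a median of 0.02 and no call. Of these 11, 4 were lower and 7 higher. Llgl2 (2.55 ± 0.32 and 3.5 ± 0.0675 CPM) was higher in every deficient library than in any control library, as were 15% of all tested genes. Of all tested genes, 4.88% were called lower and 0.0573% higher.

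**Figure D4:**
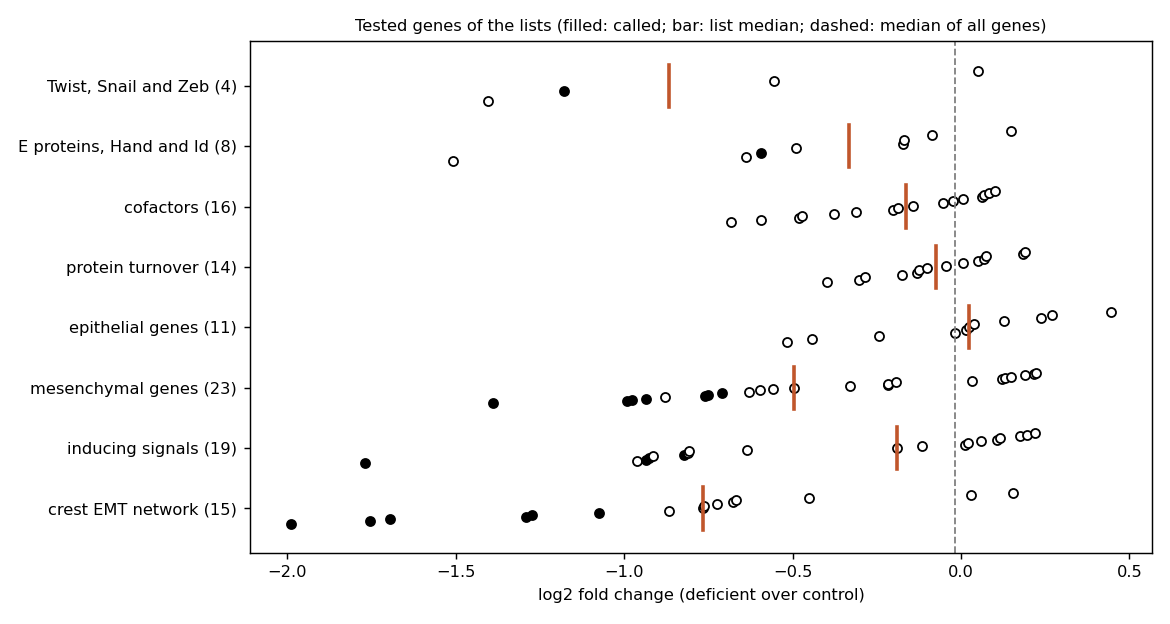
Log2 fold change (deficient over control) of each tested gene of the 8 lists, filled where the gene was called, on TMM scaling, with the list median as a bar, the number tested in brackets and the median of all tested genes dashed. The crest factors have the lowest list median after the family itself, at −0.77, and the epithelial genes lie on both sides of 0 around 0.02.

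Genes with the most similar profile were searched among 10762 named protein-coding genes of at least 2 CPM, by the root mean square difference in log2 CPM over the 6 libraries after each gene was centred on its mean. Near to Twist1 were Plekhh2 (0.0794) and Akap17b (0.0949). Bex2 (0.107), Ccdc85c (0.119) and Slit3 (0.125), a guidance ligand, came nearest to Snai2. For Zeb1 they were Selenoi (0.0363), Acap3 (0.0443) and Asap1 (0.0486). Zeb2 was matched most closely by Cltc (0.0165), the clathrin heavy chain, Chordc1 (0.0165) and Ap2b1 (0.0177), a clathrin adaptor subunit. Plekhh2 and Akap17b had log2 fold changes of −1.21 and −1.05, and the neighbours of Zeb2, Cltc, Chordc1 and Ap2b1, lay between 0.04 and 0.08. Since so many genes were searched over 6 libraries, these matches describe profiles and no more.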

How the data were processed

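RNA of sorted GFP+ NCCs was sequenced from 3 control and 3 deficient embryos, groups taken from the sample titles. According to the paper's methods and the submitters' notes, the authors trimmed paired-end reads (FastQC 0.11.7, cutadapt 1.18), mapped them on GRCm38 by STAR, and ran featureCounts. What the authors deposited are raw read counts, one whole number for each gene and library. The annotation release, strand setting and handling of multi-mapping reads are not given in the sources used here. Of 46983 identifiers, 46488 matched a name in GENCODE mouse release 21, version numbers aside. Promoters came from RefSeq (GRCm38.p6).

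The test was edgeR 4.0.16 under R 4.3.3 (filterByExpr with a minimum count of 10 and total of 15, TMM, robust quasi-likelihood fit with condition as the only term, Benjamini-Hochberg over all tested genes). Thresholds are those of the paper's methods, which used limma. Log2 CPM used a prior count of 2. Standard errors come from the F statistic. The pipeline was tested on simulated data. Members and lists were chosen with earlier results of these data known. Named genes are the members, Smarcc1, Smarcc2, genes overlapping a member, called genes (at most 4) and the 2 most abundant tested genes of each list, the 2 most abundant of each marker list and the 3 most similar profiles. Some items these rules select are not reported here. Others named (Cdh1, Epcam, Cdh3, Ocln, Llgl2, Itga5, Msx1, Mycn, Cdh2, Col1a1 and Col3a1) were chosen after their values were seen. Alternatives were DESeq2 1.42.0, limma-voom (limma 3.58.1) with and without sample weights, library totals, scaling to embryonic markers, other filters and thresholds, a replicate block, a lowess correction for exon length (span 0.3) and each library left out. Permutation tests used scipy 1.17.1 and figures matplotlib 3.10.9, both under Python 3.11.15.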

Additional observations from a re-analysis of the deposited data

How the results depend on the processing

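Twist1 stayed negative under all 17 alternatives and Snai2 under all 16, with adjusted p from 3.12e-05 to 0.585 and from 0.0255 to 0.472. The alternatives that changed only the call thresholds kept the main fold change, so the sign could not move there. Scaling to embryonic markers took Twist1 to −0.23, Zeb1 to 0.34, Zeb2 to 0.94, Twist2 to −0.92 and Snai1 to 0.017 (differences in mean log2 CPM for the last pair), the median of all genes to 0.85, and the calls to 71 lower and 8517 higher, from 681 and 8. It took list medians to 0.57 (E proteins, Hand and Id), 0.72 (cofactors), 0.82 (turnover), 0.88 (epithelial), 0.41 (mesenchymal), 0.71 (inducers) and 0.10 (crest factors), and turned Smarcc1 (0.21), Smarcc2 (0.77), Tcf3 (0.31), Tcf4 (0.79), Smarca4 (0.87), Csnk1a1 (0.78), Tjp1 (0.36), Col1a2 (0.17), Fbn1 (0.17), Egr1 (0.079), Selenoi (0.38), Acap3 (0.32) and Asap1 (0.33). This scaling by construction removes what the markers share. Sample quality weights gave 1251 genes lower and 27 higher, and Zeb1 was called lower at −0.61 (limma-voom, Benjamini-Hochberg adjusted p = 0.0253). A filter of 2 CPM in 3 libraries gave 3 higher, Zeb2os at −0.011, Ctnnb1 at −0.017 and the inducers at −0.080. Zeb1 was just past the threshold under this filter and was called lower, at −0.5825 (edgeR, Benjamini-Hochberg adjusted p = 0.0697). The adjusted p of 0.1 alone gave 1082 lower and 583 higher, with Zeb1, at −0.55, among those passing. A threshold of 0.05 gave 94 lower and 0 higher, and Twist1, at −1.18, did not pass it. DESeq2 gave 15 higher, and no filter on low counts gave 33 higher, with the turnover list at −0.025 and the inducers at −0.32. The exon-length correction gave Zeb2os −0.026, Tcf4 0.32, Smarca4 0.072, Csnk1a1 0.10, Rhob −0.00037, the turnover list 0.039 and the inducers −0.093. Library totals gave Smarca4 0.043 and the turnover list −0.010, and no filter gave Smarca4 0.027. A replicate block gave 1143 lower and 21 higher. The replicate numbers were not treated as pairs, since same-numbered libraries correlated in their deviations at 0.0284, −0.0335 and 0.293, and not every library correlated best with its own number. These numbers are those of the sample titles, and the submitters' own library names number the deficient libraries differently. Without 1 library, ranges were −1.45 to −0.89 for Twist1, −0.66 to −0.47 for Zeb1, −0.0035 to 0.079 for Zeb2 (negative without deficient replicate 3), −0.13 to 0.18 for Zeb2os, −0.47 to −0.18 for the E protein list, −0.065 to 0.012 for Smarca4, −0.011 to 0.027 for Ctnnb1 and −0.011 to 0.067 for Chordc1. Genes called lower ranged from 0 to 1219 and higher from 0 to 45. Leaving out control replicate 1 gave 0 lower by edgeR, with 2547 at an unadjusted p under 0.05. Calls lower were 61 and 1219 when control replicates 2 and 3 were left out in turn, and 1030, 219 and 17 for deficient replicates 1 to 3. The cause of these changes was not tested. Depth limited Twist2, Snai1, Snai2 and Snai3, none above 22 counts in a library.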
